A study of Homo sapiens with 4 samples.

Results

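The receptor FLT3, the transcription factors STAT5A and STAT5B, the kinases PIM1, PIM2 and PIM3, and the inhibitors CISH, SOCS1, SOCS2 and SOCS3 were examined by RNA sequencing of MV4-11 cells with and without knockdown of IRF1. The members were the rows of the deposited table whose gene symbol is one of these 10 names. All 10 were found, each as 1 row, among 23622 genes. The control group, called sh-NC, held 2 libraries, and the sh-IRF1 group, in which a short hairpin RNA was directed at IRF1, also held 2. The sample labels give both groups the WT genotype and give the treatment as none for the controls and as IRF1 knockdown for the others. The column headings name the controls as carrying a control hairpin, and the methods describe lentiviral pLKO.1 vectors and selection of infected cells with puromycin. The hairpin used in each library is not named in the labels, and separate cultures are not stated, so the p-values measure the spread between these samples, which may be technical.

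FLT3 is a receptor tyrosine kinase of early blood progenitors that is activated by its ligand FLT3LG. MV4-11 is a human acute myeloid leukemia line with a rearranged KMT2A gene and an internal tandem duplication in FLT3, which keeps the receptor active without ligand. Such a receptor phosphorylates STAT5A and STAT5B, which enter the nucleus and bind paired TTC and GAA half-sites in DNA. PIM1, PIM2, CISH and several SOCS genes are textbook STAT5 targets. PIM proteins are serine and threonine kinases that are active once made and that support survival and protein synthesis. CISH and the SOCS proteins close a negative feedback loop by binding receptors, JAK kinases or phosphorylated tyrosines and by recruiting a ubiquitin ligase. IRF1 is a transcription factor of the interferon response that binds repeated GAAA elements and is itself a known STAT target. The gene counts carry no information on the FLT3 duplication, and they measure RNA, not phosphorylation.

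The promoters were read because the study lowers a DNA-binding factor and the members are linked by another. RefSeq (GRCh38.p14) gave a window of 300 bases, 250 before and 50 after the transcription start, for 9 of the 10 members. SOCS2 had no window and was not searched. The 250 bases before the start are shown for CISH and SOCS1, the members with a motif match, and for PIM1 and PIM2, the members with the largest differences. Sequences run 5′ to 3′ on the gene's strand, with matches to the STAT motif TTCNNNGAA or to the IRF motif, a pair of GAAA elements with 2 bases between them, in capitals. Both strands were searched, and the STAT motif reads the same on both.
CISH, chr3:50611775-50612024, minus strand: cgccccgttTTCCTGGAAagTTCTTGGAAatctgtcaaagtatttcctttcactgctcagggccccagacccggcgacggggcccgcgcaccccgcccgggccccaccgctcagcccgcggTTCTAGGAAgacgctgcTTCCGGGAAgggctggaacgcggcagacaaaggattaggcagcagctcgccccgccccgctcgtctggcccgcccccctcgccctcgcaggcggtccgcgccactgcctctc
SOCS1, chr16:11256205-11256454, minus strand: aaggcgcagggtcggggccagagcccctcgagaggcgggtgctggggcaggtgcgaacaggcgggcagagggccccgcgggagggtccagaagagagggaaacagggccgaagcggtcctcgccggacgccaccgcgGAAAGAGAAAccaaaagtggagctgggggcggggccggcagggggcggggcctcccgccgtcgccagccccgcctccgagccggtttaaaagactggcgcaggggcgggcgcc
PIM1, chr6:37169902-37170151, plus strand: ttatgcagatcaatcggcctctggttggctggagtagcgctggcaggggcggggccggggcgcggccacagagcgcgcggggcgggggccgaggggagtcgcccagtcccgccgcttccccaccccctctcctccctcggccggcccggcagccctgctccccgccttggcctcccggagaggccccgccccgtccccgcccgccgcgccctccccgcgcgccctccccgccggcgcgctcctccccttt
PIM2, chrX:48919025-48919274, minus strand: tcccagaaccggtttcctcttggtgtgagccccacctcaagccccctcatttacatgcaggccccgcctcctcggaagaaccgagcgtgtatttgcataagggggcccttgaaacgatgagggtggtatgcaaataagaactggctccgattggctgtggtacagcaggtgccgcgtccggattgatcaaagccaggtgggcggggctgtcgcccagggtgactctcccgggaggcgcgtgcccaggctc

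CISH held 4 STAT matches, TTCCTGGAA at -241, TTCTTGGAA at -230, TTCTAGGAA at -129 and TTCCGGGAA at -112, where positions count from the transcription start. They form 2 pairs whose starts are 11 and 17 bases apart. A STAT match was found in 7.66% of the 35116 promoters of the table, and 7 promoters (0.0199%) held at least 4. SOCS1 held 1 IRF match, GAAAGAGAAA at -113, a motif found in 3.57% of all promoters. The IRF1 promoter itself held 1 STAT match, TTCCCCGAA at -124. No other member window held either motif, which says only that these letters are not in these 300 bases. Windows follow RefSeq starts, which can differ from the annotated gene spans. The SOCS3 window (78360876 to 78361175, minus strand) lies wholly upstream of that gene's span, which ends at 78360077. The STAT5A window lies wholly upstream of its gene's span, and the STAT5B and IRF1 windows lie inside theirs. Promoters at other starts of these genes were not searched. With 4 bases in place of 3 between TTC and GAA, the STAT motif was found in STAT5A alone among the members, at -229, and in 6.44% of all promoters. The matches are descriptions of sequence and were not tested as binding sites.

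**Figure D1:**
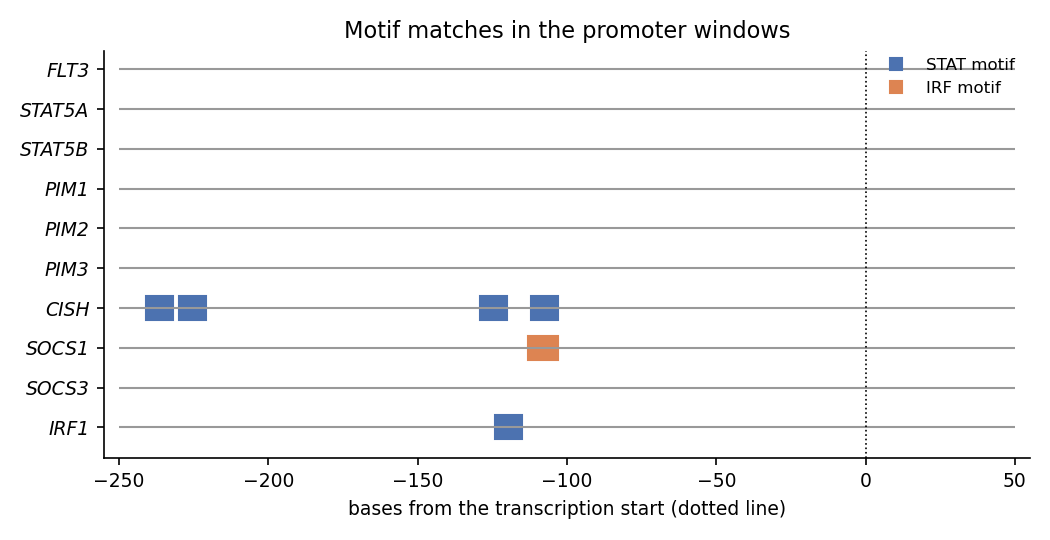
Positions of motif matches in the promoter windows of 9 members and of IRF1, with the distance from the transcription start in bases on the horizontal axis and 1 line per gene. Blue blocks are matches to the STAT motif and orange blocks are matches to the IRF motif; CISH carries 4 of the 5 STAT matches drawn and SOCS1 the 1 IRF match.

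The libraries held 17635908 to 18695337 reads in genes. Values are normalized counts, that is reads divided by 1 size factor per library. IRF1 read 785 and 738 in the sh-NC libraries against 429.7 and 432 in the sh-IRF1 libraries, so the knockdown left 56.6% of the control level (log2 fold change -0.82, SE 0.0904, adjusted p = 1.69e-10, limma with Benjamini-Hochberg adjustment over all 14120 genes tested). Of the exonic bases of IRF1, 22.9% are shared with genes on the opposite strand, mainly IRF1-AS1, which read 20.6 to 33.9. All 10 markers of the MV4-11 type were present, with CD33 and CD4 at 102% and 101% of control and no call, HOXA9 and MEIS1 without a call, MPO, FCGR1A and CEBPA lower and LYZ, SPI1 and ITGAM higher. T cell markers summed to at most 8.22 and no erythroid marker was in the table. B cell markers summed to 96.4 and 122 in sh-NC and to 235 and 299 in sh-IRF1, and endothelial and stromal markers, nearly all of it PECAM1, to 1161 and 1403 against 3183 and 3120. Of the endothelial and stromal markers, COL1A1 read 0 to 4.97, and CDH5, COL1A2 and EPCAM were not among the deposited genes. The part of these markers in the results on the members was not tested. These are bulk samples, so fewer cells of a type and less RNA per cell cannot be told apart.

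Of the 10 members, 4 fell (FLT3, STAT5B, PIM1 and SOCS2), 1 rose (PIM2) and 5 did not pass the test (STAT5A, PIM3, CISH, SOCS1 and SOCS3). The test was limma on log2(value + 1) with an adjusted p under 0.05. Over all 14120 genes it called 42.2%, with 21.9% lower and 20.3% higher in sh-IRF1. Among the 7946 genes with a mean of at least 300, as every member has, the shares were 31.3% lower and 25.9% higher. When a log2 fold change beyond 0.5 was also required, 2 members remained, PIM1 lower and PIM2 higher, against 15.8% of all genes (7.56% lower and 8.27% higher) and 13.3% of genes with a mean of at least 300. The median log2 fold change of the members was -0.16 and that of all genes -0.0019. The 2 groups did not overlap in 9 of the 10 members, 7 lower and 2 higher, and in 69.2% of all genes, 35.0% lower and 34.2% higher. All members passed the filter on low values in every library, the lowest value being 320.4 for SOCS3. With 2 libraries a group an exact permutation test of 1 gene cannot give a two-sided p below 0.333, so the calls depend on the variance limma estimates from all genes together.

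**Figure D2:**
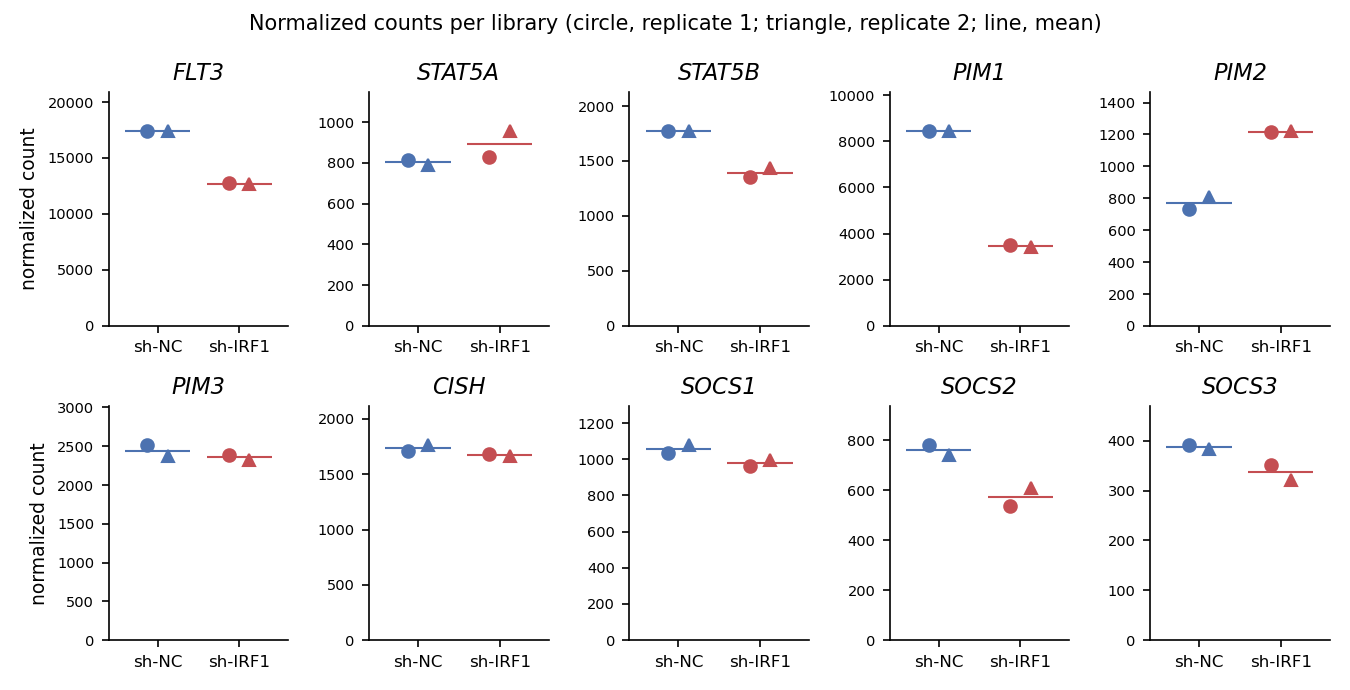
Normalized count of each of the 10 members in each library, 1 panel per gene with its own vertical axis starting at 0. Circles are replicate 1, triangles replicate 2 and lines group means; PIM1 drops from 8441 and 8447 to 3526 and 3417, PIM2 climbs from 730.4 and 810.4 to 1213 and 1222, and the PIM3 groups overlap.

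FLT3 was the most abundant member. It read 17391 and 17412 in sh-NC and 12745 and 12634 in sh-IRF1. The libraries of a group lay close together, and the groups were far apart compared with that spread. FLT3 fell to 72.9% of control (95% interval 70.2% to 75.7%), a log2 fold change of -0.46 (SE 0.0268, adjusted p = 2.75e-19 by limma). This is short of the fold of 0.5, although its p ranked 163 among the genes tested. The gene lies on chromosome 13 (28003274 to 28100592, minus strand, GRCh38) and shares no exonic base with another annotated gene.

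STAT5A and STAT5B carry the signal of the receptor to DNA, and STAT5B fell while STAT5A did not pass the test. STAT5B read 1768 and 1773 in sh-NC and 1352 and 1432 in sh-IRF1. Both sh-IRF1 libraries were below both controls. STAT5B fell to 78.6% of control (log2 fold change -0.35, SE 0.0569, adjusted p = 1.62e-06 by limma). STAT5A read 816 and 792 in sh-NC and 828 and 957 in sh-IRF1. Its groups did not overlap, but the sh-IRF1 libraries differed from each other by more than the groups were apart at their nearest. STAT5A stood at 111% of control with a 95% interval of 99.3% to 123% (log2 fold change 0.15, SE 0.0777, adjusted p = 0.127 by limma), which does not pass the test. Without sh-IRF1 replicate 1 the log2 fold change of STAT5A was 0.25 (adjusted p = 0.0399 by limma), which passes it. The ratio of STAT5B to STAT5A counts was 2.17 and 2.24 in sh-NC and 1.63 and 1.5 in sh-IRF1, a difference that was not tested. The 2 genes are neighbours on chromosome 17, on opposite strands, and share exonic bases amounting to 6.5% of STAT5A and 3.43% of STAT5B. Whether the counting used strand is not given in the sources used here, so reads in the shared stretch cannot be assigned.

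Of the PIM kinases, PIM1 fell, PIM2 rose and PIM3 did not pass the test. PIM1 read 8441 and 8447 in sh-NC and 3526 and 3417 in sh-IRF1. The nearest values of the groups were 4915 counts apart. PIM1 fell to 41.1% of control (95% interval 39.1% to 43.2%), with a log2 fold change of -1.28 (SE 0.0359, adjusted p = 2.23e-31 by limma). Its p ranked 7 among all genes tested, and 1.84% of the genes tested had a log2 fold change as low or lower. PIM1 lies on chromosome 6 (37170152 to 37175428, plus strand).

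PIM2, on the X chromosome (48913182 to 48919024, minus strand), moved the other way. It read 730.4 and 810.4 in sh-NC and 1213 and 1222 in sh-IRF1, with no overlap. PIM2 rose to 158% of control (95% interval 143% to 175%, log2 fold change 0.66, SE 0.0716, adjusted p = 1.05e-10 by limma). PIM3 on chromosome 22 read 2513 and 2372 in sh-NC and 2382 and 2328 in sh-IRF1. Its groups overlapped, since the higher sh-IRF1 library exceeded the lower control. PIM3 stood at 96.4% of control with a 95% interval of 90.2% to 103% (log2 fold change -0.052, SE 0.0480, adjusted p = 0.411 by limma), so a fall of more than about 10% lay outside the interval.

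Within each library the number of PIM1 reads for each PIM2 read was 11.6 and 10.4 in sh-NC and 2.91 and 2.80 in sh-IRF1. The ratio of PIM1 to PIM3 was 3.36 and 3.56 against 1.48 and 1.47. A ratio within a library does not depend on how libraries were scaled. Per kb of exon, which makes levels comparable between genes, the 3 kinases summed to 4177 ± 23.7 normalized counts (SD, n = 2) in sh-NC and 2658 ± 40.4 in sh-IRF1, or 63.6% of control. PIM1 gave 66.7% ± 0.411 of that sum in the controls and 43.1% ± 0.302 after knockdown (SD, n = 2). PIM3 gave 26.6% ± 0.939 and 40.3% ± 0.0396, and PIM2 gave 6.68% ± 0.529 and 16.6% ± 0.342. The PIM pool was smaller in both sh-IRF1 libraries than in either control.

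**Figure D3:**
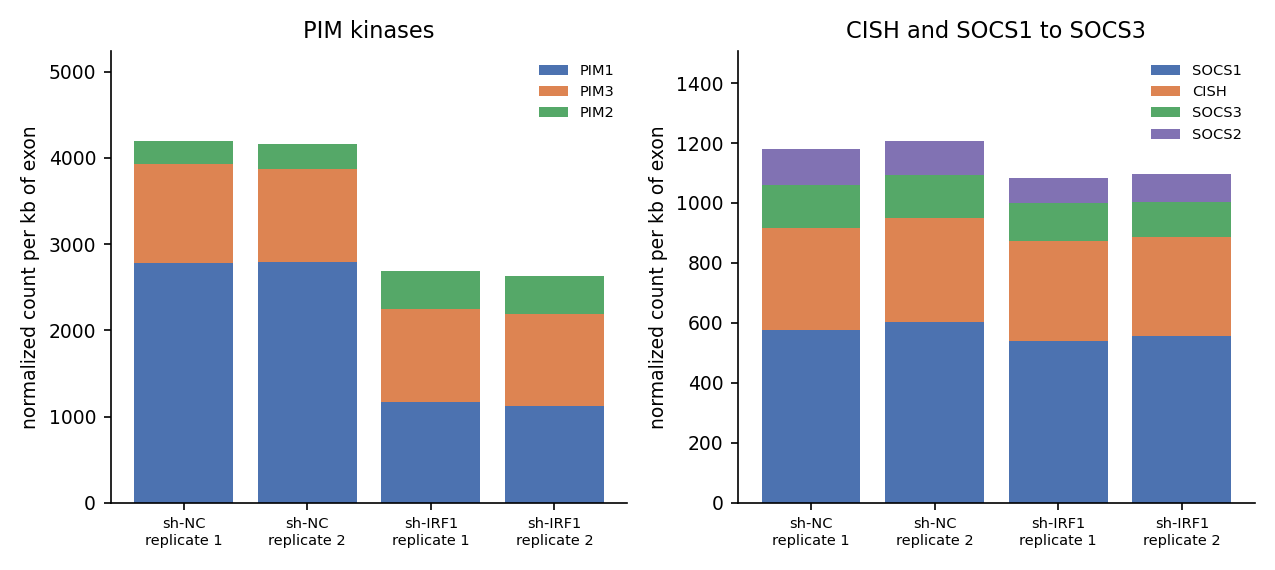
Stacked bars of the level per kb of exon in each of the 4 libraries, for the PIM kinases on the left and for CISH with SOCS1 to SOCS3 on the right, both axes starting at 0 in normalized counts per kb. The PIM bars drop from 4194 and 4160 to 2687 and 2630 with PIM1 taking a smaller part, and the SOCS bars run from 1179 and 1206 to 1084 and 1097.

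CISH, the feedback inhibitor with the 4 STAT matches, was at nearly the same level in both groups. It read 1707 and 1763 in sh-NC and 1686 and 1662 in sh-IRF1. The groups did not overlap, with 20.9 counts between the nearest values. CISH stood at 96.5% of control with a 95% interval of 89.4% to 104% (log2 fold change -0.051, SE 0.0545, adjusted p = 0.482 by limma). For each FLT3 read there were 0.0981 and 0.101 CISH reads in sh-NC and 0.132 in each sh-IRF1 library, while for PIM1 the numbers were 0.485 in each sh-NC library and 0.277 and 0.270. Both genes are STAT5 targets in the textbook, and of the pair PIM1 passed the test and CISH did not. The difference between the 2 genes was not itself tested. Of the exonic bases of CISH, 4.31% are shared with its neighbour MAPKAPK3 on chromosome 3.

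SOCS2, which binds growth hormone and cytokine receptors, was the 1 inhibitor that fell. It read 779.6 and 742 in sh-NC and 535 and 608 in sh-IRF1. Both sh-IRF1 values lay under both controls by over 100 counts. SOCS2 fell to 75.2% of control (95% interval 66.5% to 84.7%, log2 fold change -0.41, SE 0.0865, adjusted p = 9.86e-05 by limma). An antisense gene, SOCS2-AS1, shares 4.28% of its exonic bases and read 29.8 to 46.2.

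SOCS1, which blocks JAK kinases directly and carries the IRF match, read 1033 and 1077 in sh-NC and 964 and 996 in sh-IRF1. Its groups did not overlap, but the distance between them was similar to that within them. SOCS1 stood at 92.9% of control with a 95% interval of 84.4% to 102% (log2 fold change -0.11, SE 0.0688, adjusted p = 0.219 by limma). SOCS3, an inhibitor of gp130 family receptors, read 391 and 384 in sh-NC and 352 and 320.4 in sh-IRF1. It stood at 86.8% of control with a 95% interval of 74.0% to 102% (log2 fold change -0.21, SE 0.113, adjusted p = 0.145 by limma). For both genes the interval includes no change and also a fall of more than 10%. As a pool, CISH and SOCS1 to SOCS3 summed to 1192 ± 19.5 normalized counts per kb for the controls and to 1090 ± 9.14 after knockdown (SD, n = 2). SOCS1 gave about equal shares of the pool in both groups, 49.5% ± 0.666 for the controls and 50.3% ± 0.744 after knockdown (SD, n = 2).

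**Figure D4:**
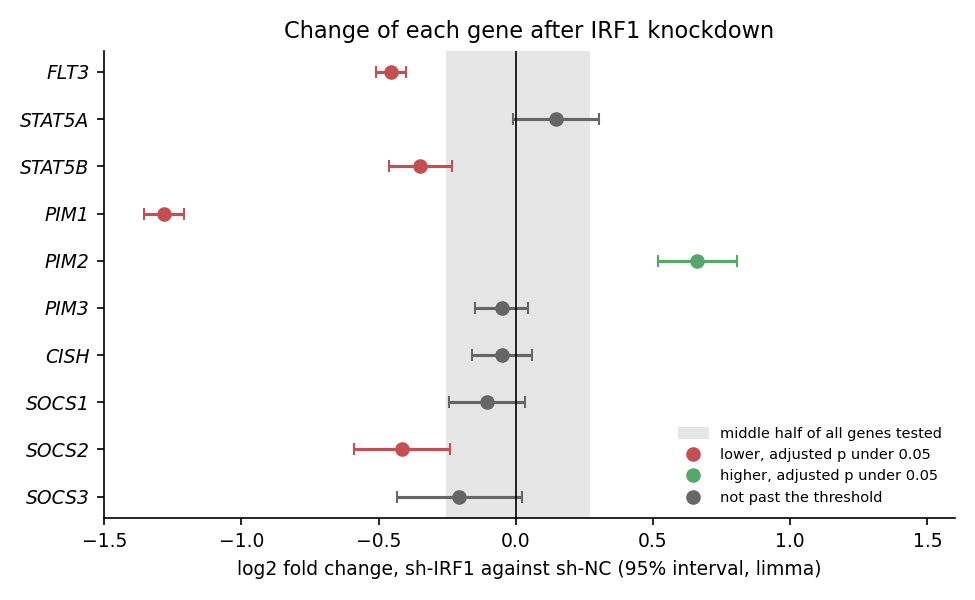
Log2 fold change of each member, sh-IRF1 against sh-NC, with its 95% interval from limma. The grey band runs between the quartiles of all genes tested, from -0.25 to 0.27; FLT3, STAT5B, PIM1 and SOCS2 lie below it and PIM2 above it, while the other 5 points fall inside it.

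Per kb, with all exonic bases of a gene as its length, the order of the members in sh-NC was FLT3 (4184), PIM1 (2787), PIM3 (1111), SOCS1 (590.2), CISH (343), PIM2 (279), STAT5B (146), SOCS3 (142), STAT5A (126) and SOCS2 (117). Each gene was above the next in both sh-NC libraries, although STAT5B and SOCS3 were within a few counts of each other. FLT3 ranked 102 and PIM1 171 among 14055 genes with a length. In sh-IRF1 the order was FLT3 (3051), PIM1 (1146), PIM3 (1072), SOCS1 (548), PIM2 (441), CISH (331), STAT5A (139.7), SOCS3 (123), STAT5B (115) and SOCS2 (88.3). SOCS3 and STAT5B overlapped there, and PIM1, now at rank 557, lay just above PIM3 at rank 598. Below PIM3 the order depended on the length used. With the longest transcript in place of all exonic bases, an alternative chosen after seeing the data, FLT3, PIM1 and PIM3 kept their order in both groups, but SOCS2 stood at 204 per kb in sh-NC, above STAT5A (187) and SOCS3 (142). PIM2 was then above CISH in both groups (371 against 344 in sh-NC), and STAT5A and STAT5B overlapped in sh-IRF1.

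The genes around the members were taken from lists of general knowledge. Of 110 such genes, 105 were in the table and 94 passed the filter on low values. Of those tested, 38 (40.4%) fell and 20 (21.3%) rose, and their median log2 fold change was -0.11. Over all genes tested, 21.9% fell and 20.3% rose. Among genes with a mean of at least 300, which not all listed genes reach, 31.3% fell and 25.9% rose. The same shares stand beside the counts of each list below. No enrichment was tested, and the lists overlap in a few genes.

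Other genes known as STAT5 targets were mostly lower. Of 17 tested, 11 fell, 3 rose and 3 did not pass, and the median log2 fold change was -0.52. The shares over all genes were 21.9% lower and 20.3% higher, and 31.3% and 25.9% at a mean of at least 300. The counts and the median do not separate targets that STAT5 activates from targets that it represses. This list, like the others, was chosen with earlier results of these data known. MYC, the growth-promoting transcription factor, fell from 14380 ± 257 to 7364 ± 22.6 (SD, n = 2; log2 fold change -0.97, SE 0.0297, adjusted p = 1.03e-29 by limma). DUSP6, a phosphatase of ERK kinases, fell to 35.4% of control, with 28.6% of its exonic bases shared with other genes, and TNFRSF1B, a TNF receptor, fell by 0.70 on the log2 scale. The cell cycle gene CCND2 and the survival genes MCL1 and BCL2L1 fell by 0.93, 0.40 and 0.24 on the log2 scale, with 13.8% of the exonic bases of CCND2 and 41.3% of those of BCL2L1 shared. BCL6, a repressor, rose from 34.4 ± 7.95 to 107 ± 16.8 (SD, n = 2) and IL2RA, an interleukin receptor chain, from 31.3 ± 0.697 to 93.7 ± 2.59. MYC and PIM1 both fell, and the ratio of MYC to PIM1 counts was 1.68 and 1.72 in sh-NC and 2.09 and 2.15 in sh-IRF1.

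Among 20 adaptors and kinases that act close to FLT3, 9 fell, 5 rose and 6 did not pass, with a median of -0.058. SH2B3, an adaptor that restrains JAK2 and FLT3 signaling, fell from 3665 ± 40.9 to 1868 ± 171 (SD, n = 2; log2 fold change -0.97, adjusted p = 1.59e-21 by limma). The kinase FYN fell by 1.07 and the adaptor GAB1 by 1.36 on the log2 scale, both at under 200 counts. SLA2, an adaptor that dampens receptor signaling, rose by 0.88. Of 5 tested receptors and ligands of the class of FLT3, the ligand CSF1 fell by 1.64 (to 32.1% of control) and its receptor CSF1R by 0.19. KITLG, the ligand of KIT, had 2 and 2 reads in sh-NC and 22 and 14 in sh-IRF1. It reached the filter on low values through sh-IRF1 alone, so its call as higher, which is among the 20 above, is no support for a change. FLT3LG, the ligand of FLT3, was below the filter on low values.

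Among JAK kinases and STATs outside the members, JAK1 and STAT6 fell and TYK2 and STAT3 rose, none of these 4 beyond the fold of 0.5. JAK2, which transmits cytokine signals to STAT5, stood at 105% of control (adjusted p = 0.582 by limma). Of 7 tested receptors that signal through STAT5, IL7R and IL2RB fell by 0.57 and 1.32 on the log2 scale. The myeloid receptor chains CSF3R, CSF2RA and CSF2RB rose by 0.44, 0.44 and 0.29. Among 9 phosphatases and PIAS proteins that limit JAK and STAT activity, 4 fell and 2 rose. The 2 that rose, DUSP3 (log2 fold change 0.64) and PIAS4 (0.53), were beyond the fold, and none of those that fell was.

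Of the 4 other SOCS genes, SOCS5 fell from 442 ± 15.6 to 259 ± 5.48 (SD, n = 2; log2 fold change -0.77, SE 0.116, adjusted p = 3.18e-07 by limma), and SOCS4, SOCS6 and SOCS7 stood at 91.4%, 100.2% and 91.6% of control without a call. Of 7 subunits of the ubiquitin ligase that SOCS proteins recruit, CUL5, its scaffold, fell by 0.67 (13.3% of its exonic bases shared) and ELOB by 0.37, and 5 did not pass. Of 14 tested PIM substrates, 5 fell, 3 rose and 6 did not pass. The 1 beyond the fold was BAD, a cell death protein that PIM kinases phosphorylate, which rose by 0.56 with 23.7% of its exonic bases shared.

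Of 7 transcription factors known at the FLT3 promoter, CEBPA fell by 0.11, SPI1 rose by 0.17 and 5 did not pass. HOXA9 and MEIS1, partners in KMT2A-rearranged leukemia, stood at 95.5% and 92.6% of control (adjusted p = 0.539 and 0.267 by limma). Of the exonic bases of CEBPA, HOXA9 and MEIS1, 43.9%, 27.0% and 13.3% are shared with other genes.

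**Figure D5:**
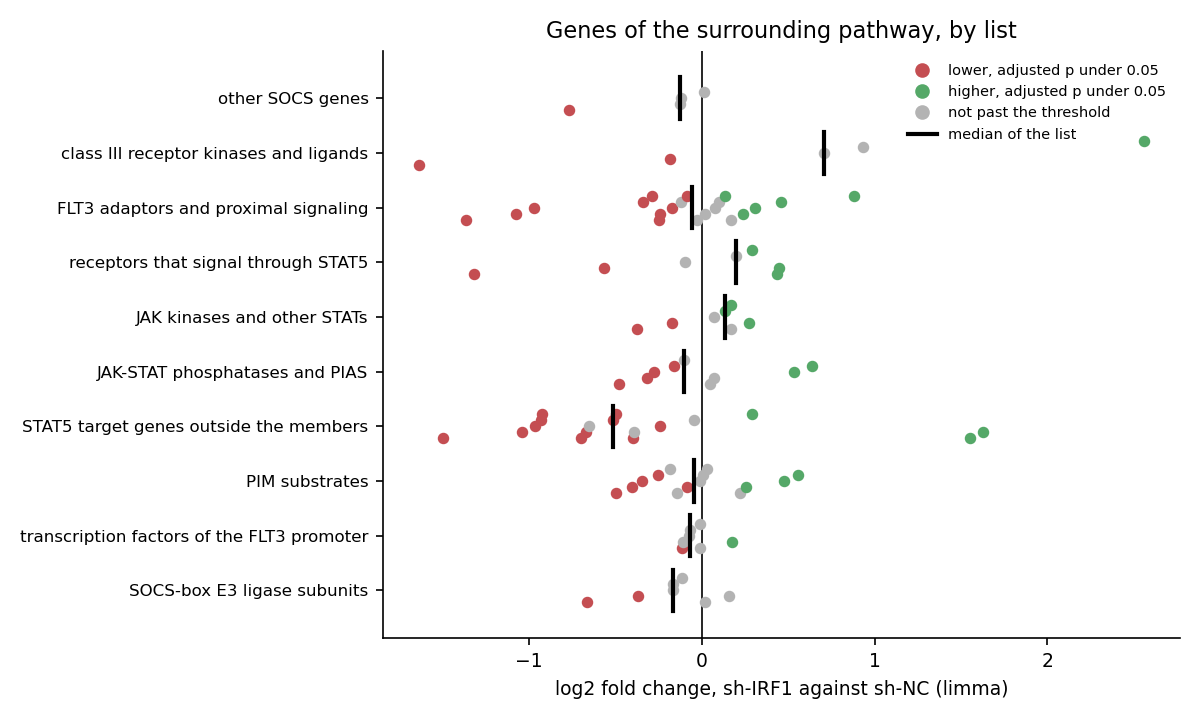
Log2 fold change, sh-IRF1 against sh-NC, of each tested gene in 10 lists around the members, 1 point per gene and 1 line per list, with a black bar at the list's median. Red points fell, green points rose and grey points did not pass limma's adjusted p of 0.05; the STAT5 targets have a median of -0.52, and the FLT3 adaptors one of -0.058.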

How the data were processed

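RNA was extracted with Trizol and libraries were made with the Illumina TruSeq RNA kit. The submitters' processing notes name HISAT2 2.0.5 and the build hg38; the counting tool, annotation and use of strand are not given in the sources used here. The table deposited by the authors holds a signal per gene, which is the read number after scaling of each library by a size factor (0.974 to 1.07). Multiplying back gave whole reads for 100% of values (tolerance 0.001 of a read). The methods also name FPKM, which was not used here.

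Symbols matched 23456 of 23622 identifiers; positions and lengths came from GENCODE on GRCh38. The test was limma 3.58.1 (R 4.3.3; variance trend, robust) on log2(value + 1), the scale of all fold changes, which understates those of low genes. Genes reaching 10 in 2 or more libraries were tested, and p-values were adjusted by Benjamini-Hochberg over all 14120. Reads were also tested with edgeR 4.0.16 and DESeq2 1.42.0. Depth ran from 17635908 to 18695337 reads, which leaves a group with at most 3 reads per library without a fold. Scripts were tested on simulated data.

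The members and lists were chosen with earlier results of these data known. Named genes were the members, IRF1, in each list up to 3 genes per direction with the smallest p among those with an adjusted p under 0.05 and a log2 fold change beyond 0.5, and MYC, CCND2, BCL2L1, MCL1, JAK2, HOXA9 and MEIS1. Other listed genes were named after their values were seen, to complete short counts, and some listed genes are not reported here. Alternatives covered scaling, filter, pseudocount, robust setting, count tests, replicate block, left-out libraries, gene length and motif.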

Additional observations from a re-analysis of the deposited data

How the results depend on the processing

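No member reversed direction under any alternative, and the calls of FLT3, STAT5B, PIM1, PIM2 and SOCS2 were made under every one, edgeR and DESeq2 included. STAT5A passed the test when libraries were scaled by total reads (log2 fold change 0.19, adjusted p = 0.0417 by limma). When each library was left out in turn, with the lone sample assumed to vary like the others, STAT5A ran from 0.042 to 0.25, the members past the test numbered 5 to 6, and those past the fold too numbered 2 to 3. The added members were STAT5A without sh-IRF1 replicate 1 and SOCS2 without sh-IRF1 replicate 2 (-0.51). Leaving out a library gave -1.30 to -1.26 for PIM1, 0.59 to 0.74 for PIM2, -0.46 to -0.45 for FLT3, -0.39 to -0.31 for STAT5B and -0.51 to -0.32 for SOCS2. With the length of the longest transcript, PIM2 gave 7.97% of the PIM sum for the controls and 19.6% after knockdown, and SOCS2 15.9% and 13.2% of the sum of CISH and SOCS1 to SOCS3. Scaling by total reads moved the median of all genes by 0.044 (log2), and 56.4% of calls were then higher, against 48.1%. Replicate numbers are shared by the groups. The deviations of same-numbered libraries correlated at -0.015 over all genes tested, so no shared shift was seen. With 2 libraries a group this cannot show whether same-numbered libraries shared a culture or a preparation. With the replicate block 5 members passed and 6050 genes were called, against 5953 without. Levels of low genes such as KITLG are limited by depth.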

Other observations

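Other genes of the lists, chosen after their values were seen, gave further contrasts. Of the cytoplasmic kinases of myeloid cells that act beside FLT3, LYN fell from 4269 ± 65.6 to 3365 ± 60.4 normalized counts, while SYK rose from 4391 ± 126 to 5439 ± 77.1 (SD, n = 2 each). PIK3CD, a catalytic subunit of PI3 kinase in blood cells, rose to 118% of control. Among STAT5 targets, the survival gene BCL2 fell from 2976 ± 16.9 to 2082 ± 38.2, the cytokine OSM from 371 ± 55.5 to 194 ± 17.8 and SPRY2, an inhibitor of receptor kinase signaling, from 625 ± 28.5 to 393 ± 22.7. Of the PIM substrates, the translation repressor EIF4EBP1 fell to 75.5% of control and the cell cycle inhibitor CDKN1B to 83.8%. All of these passed an adjusted p of 0.05 in limma. PTPRC, a phosphatase that acts on JAK kinases, fell to 71.6% of control, and JAK1 to 77.1%.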
